A study of Mus musculus with 4 samples.

Results

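The locus described here is a stretch of mouse chromosome 10 around Hdac2, Marcks and Hs3st5, in which the replication profile of embryonic stem cells rose far more steeply at Hdac2 without Snf2h than with it. It comprises all 121 windows that start between 35500001 and 38500001 in GRCm38 (35.5 to 38.6 Mb), out of 109033 windows in the series. The locus was picked because its profile rises from 36.85 to 37.025 Mb much more in the knockout, that is, it was selected on the polarity values of all 4 libraries. Every difference between genotypes given here is therefore a description. A limma fit over the windows of the whole genome is given by its counts alone, and nothing about the locus is read from them. The data are TrAEL-seq profiles of mouse embryonic stem cells of the line 129S6/SvEvTac, grown on gelatin in medium with serum and LIF. The wild type (WT) and the knockout (KO, labelled SNF2KO) have 2 libraries each, which came from duplicate cultures per the labels. The labels do not say how Snf2h was disrupted or whether the knockout cells derive from a single clone.

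TrAEL-seq captures free 3′ ends of DNA. In growing cells many of these ends belong to replication forks, so an excess of ends on either strand tells in which direction forks mostly travel through a region. Forks leave an initiation zone in both directions and meet again in termination zones, and a fork-direction profile therefore changes steeply in one sense where forks diverge and in the other where they converge. The deposited value, called polarity here, is the signed strand imbalance in a 100 kb window in percentage points, between -50 and 50, with windows spaced 25 kb. Which strand counts as positive is not given in the sources used here, so a rise is not assigned to initiation or termination. Snf2h (Smarca5) is the ATPase of ISWI chromatin remodelling complexes, which space nucleosomes and act on chromatin during replication.

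The locus holds few genes. RefSeq lists 16 in it, of which 4 are protein-coding, 9 are lncRNA genes, 2 are snoRNA genes and 1 is a pseudogene. The median over 743 autosomal stretches of the same length, 3.1 Mb, was 19 protein-coding genes, and 12.1% of those stretches had 4 or fewer. Amd2, which encodes an S-adenosylmethionine decarboxylase of polyamine synthesis, lies at 35708691 to 35711891. A gap of 795 kb without protein-coding genes separates it from Hs3st5 at 36506590 to 36834397, a long gene for a sulfotransferase that places 3-O-sulfate groups on heparan sulfate. Hdac2 follows after 139.9 kb, at 36974297 to 37001889, and encodes a class I histone deacetylase that works in the NuRD, Sin3 and CoREST corepressor complexes beside its paralogue Hdac1. Marcks follows after another 131 kb, at 37133243 to 37138926, and encodes a protein kinase C substrate that binds actin and phosphoinositides at the plasma membrane. The next protein-coding gene beyond it, Rfpl4b, begins 1682 kb further on.

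The sequences upstream of 3 gene starts are shown because each of these genes lies at or beside a rise of the profile that differed between the genotypes. The start is that of the transcript in RefSeq's promoter entries on the plus strand of GRCm38.p6. For Hdac2 and Hs3st5 it lies 247 and 217 bases inside the gene interval given above, so most of the sequence before it belongs to the annotated gene. Printed are the last 30 bases before each start. RefSeq had an entry for 12 of the 16 genes and for 3 of the 4 protein-coding genes (Marcks being the one without). Capitals mark GC boxes, the letters GGGCGG on either strand. The Hdac2 bases are at chr10:36974514-36974543, those of Hs3st5 at chr10:36506777-36506806 and those of the lncRNA gene 5930403N24Rik, just beyond Marcks, at chr10:37139502-37139531.
Hdac2: cgcagccccgCCGCCCggaggcctacccct
Hs3st5: agcgcgaggaggagaagGGGCGGggtgggt
5930403N24Rik: tatttaaaccacgaagatcgaatttcatct

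The 250 bases before each start were searched. The Hdac2 stretch held 27 CpG dinucleotides and had a GC content of 68.8%. The median over 32851 promoter entries was 6 CpG and 52.4%, and 8.56% of entries had at least as many CpG as Hdac2. The Hs3st5 and 5930403N24Rik stretches held 8 CpG each, with GC contents of 62.0% and 41.6%. Hdac2 and Hs3st5 had 1 GC box each, and 32.7% of all entries had any. A CCAAT box (CCAAT on either strand, not overlapping the GC box) was found in the Hs3st5 stretch only, against 33.8% of all entries, and a TATA box (TATAAA on either strand) in none of these 3 stretches, against 12.4%. The profile is resolved to windows of 100 kb and does not bear on single promoters.

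All 121 windows had a value in every library. Read counts were not used here, so the depth behind each value is unknown. The SD of polarity over 23672 autosomal windows that do not overlap was 14.6 and 12.8 points in WT replicates 1 and 2, and 19.5 and 14.5 points in KO replicates 1 and 2. KO replicate 1 thus had the largest SD, whereas that of KO replicate 2 lay between the WT libraries. The label of WT replicate 2 and the header of its column name different sequencing indices; without that library the gained rise described next was 31.3 points instead of 34.5.

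At Hdac2 the profile went up in all 4 libraries, but by far more in KO. The figures that follow are differences of a running mean of 5 windows, from the midpoint 36.85 Mb to the midpoint 37.025 Mb. The rise was 15.7 and 9.37 points in the WT libraries and 54.4 and 39.6 points in the KO libraries. This gave means of 12.5 ± 4.47 points for WT and 47.0 ± 10.5 points for KO (SD, n = 2 each) and a difference of 34.5 points against a pooled replicate SD of 8.05 points. The difference was 15.7 points when the largest rise of each library near these bounds was taken instead, which in WT is the one over Hs3st5. The genotypes did not overlap. In units of each library's own SD the rise was 1.07 and 0.730 in the WT libraries and 2.80 and 2.73 in the KO libraries, so that the KO libraries came closer to each other on this scale than in points. Among 93491 autosomal positions, a rise over the same 175 kb was higher in both KO than in both WT libraries at 20.8%, and by a mean of at least 20 points as well at 0.446%. The reverse, a mean at least 20 points smaller with both KO below both WT libraries, was found at 0.245%. These positions overlap and were taken whether or not a rise began there, whereas the bounds at Hdac2 were picked on a rise. The shares therefore do not measure how rare such a gained rise is. The start of Hdac2, at 36974544, lies inside the bounds of the rise, 37.0 kb beyond its middle.

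The larger rise in KO came from both of its ends. In the window at 36800001 to 36900000, which lies between Hs3st5 and Hdac2 apart from the last part of Hs3st5, polarity was -13.5 and -3.36 points in the WT libraries and -26.5 and -26.0 points in the KO libraries. In the window at 36975001 to 37075000, which holds most of Hdac2, it was 6.76 and 2.08 points in the WT libraries and 32.7 and 18.3 points in the KO libraries. The KO minus WT difference was thus -17.8 points at the low end and 21.1 points at the high end, with no overlap between the genotypes at either. With the bounds set instead at each library's own extrema, the rise ran over 150 kb in both WT libraries and 200 kb in both KO libraries. Its steepness was 10.9 and 6.36 points per 100 kb in the WT libraries and 27.9 and 20.9 points per 100 kb in the KO libraries. The upward crossing of 0 fell at 36.982 and 36.946 Mb in the WT libraries and at 36.924 and 36.957 Mb in KO, positions that overlap between the genotypes.

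**Figure D1:**
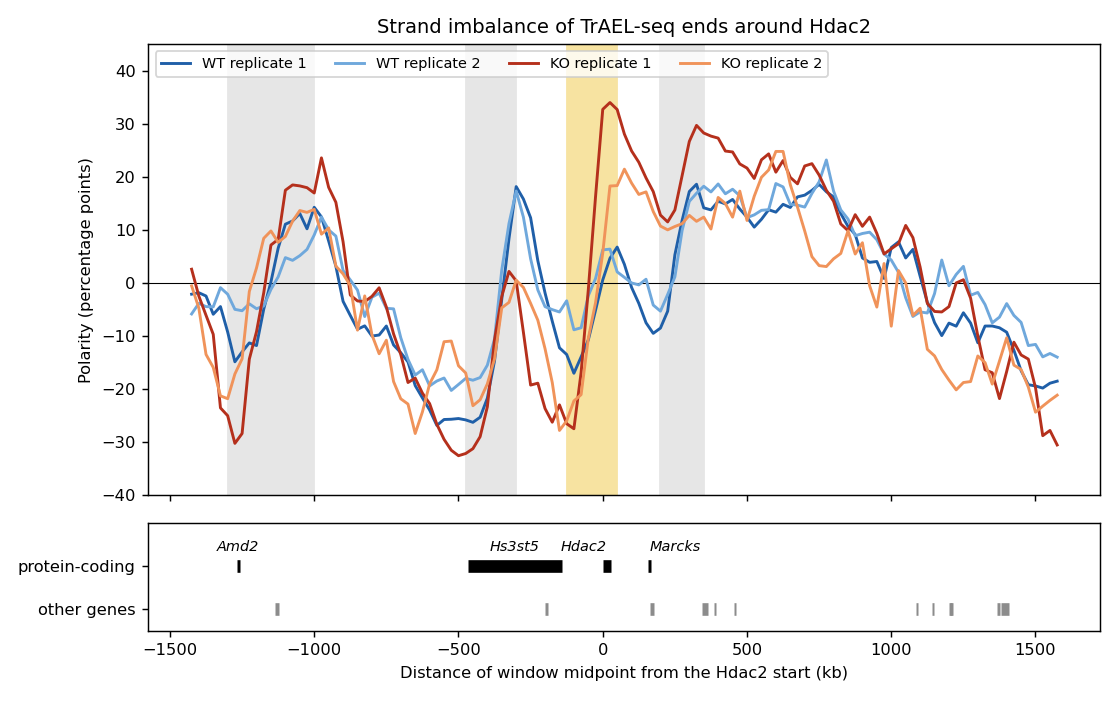
Polarity in percentage points (deposited window values) against the distance of the window midpoint from the Hdac2 start in kb, for 2 WT (blue) and 2 KO (red and orange) libraries, with RefSeq genes below. The yellow band is the rise at Hdac2 and the grey bands are the other 3 rises described. The blue lines step up at each of the 3 right-hand bands. Of their ascent over these 3 bands, the red and orange lines make most in the yellow band.

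The rise at Hdac2 stood in a series of 3 rises in WT, and the neighbours on both sides were smaller in KO. Rises were taken between neighbouring extrema of the mean profile of all 4 libraries where it went up by at least 5 points. Over the first part of Hs3st5, from 36.5 to 36.675 Mb, polarity rose by 36.0 and 28.3 points in the WT libraries and by 25.6 and 15.2 points in the KO libraries. The means were 32.1 ± 5.47 and 20.4 ± 7.31 points (SD, n = 2 each), a difference of -11.7 points against a pooled replicate SD of 6.46 points, which was -6.58 points without KO replicate 2. Beyond Marcks, from 37.175 to 37.325 Mb, between the lncRNA genes 5930403N24Rik and Gm26535, the rise was 20.9 and 19.2 points in the WT libraries and 12.9 and 0.207 points in the KO libraries. The means were 20.1 ± 1.21 and 6.55 ± 8.97 points (SD, n = 2 each), a difference of -13.5 points against 6.40 points, which was -7.17 points without KO replicate 2. KO replicate 2 was nearly flat between these bounds and rose further on. With bounds at each library's own extrema, its rise was 10.2 points, from 37.3 to 37.575 Mb, beside 12.9 points in KO replicate 1 and 22.7 and 19.9 points in the WT libraries. In library SD units the differences at Hs3st5 and beyond Marcks were -1.15 and -1.13, against pooled replicate SDs of 0.185 and 0.326. KO minus WT in the running mean was -14.0 points at the top of the Hs3st5 rise and -14.1 points at the foot of the Hdac2 rise. It was 20.4 points at the top of the Hdac2 rise and 17.2 points at the foot of the rise beyond Marcks. The smaller neighbours thus share these shifts with the rise that picked the locus and are not a separate result.

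Of the summed height of these 3 rises, the one at Hdac2 made up 21.6% and 16.5% in the WT libraries and 58.6% and 72.0% in KO. The rise over Hs3st5 made up 49.6% and 49.7% in the WT libraries and 27.5% and 27.6% in KO. The rise beyond Marcks made up 28.8% and 33.8% in the WT libraries 13.9% and 0.375% in KO, where the last value rests on the shared bounds. With bounds at each library's own extrema, the rise beyond Marcks made up 29.6% and 34.3% in the WT libraries and 13.4% and 14.9% in KO, and the one at Hdac2 21.4% and 16.4% in the WT libraries and 58.1% and 60.7% in KO. These shares do not depend on the amplitude of a library. In none of the 3 did the genotypes overlap with either choice of bounds. However, the shares of a library add up to its whole, so a larger share at Hdac2 lowers the others. The locus was picked for the rise at Hdac2, and the 3 shares are not separate results. The net change from the foot of the first rise to the top of the last, 36.5 to 37.325 Mb, was 41.5 and 35.9 points in the WT libraries and 59.2 and 30.3 points in the KO libraries, with the WT libraries between the KO libraries. Its difference of 6.01 points was smaller than the pooled replicate SD of 14.7 points, and it was -8.41 points without KO replicate 1, 20.4 points without KO replicate 2 and -0.256 in library SD units. The net change also contains the declines between the rises, so the shares above are not shares of it.

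**Figure D2:**
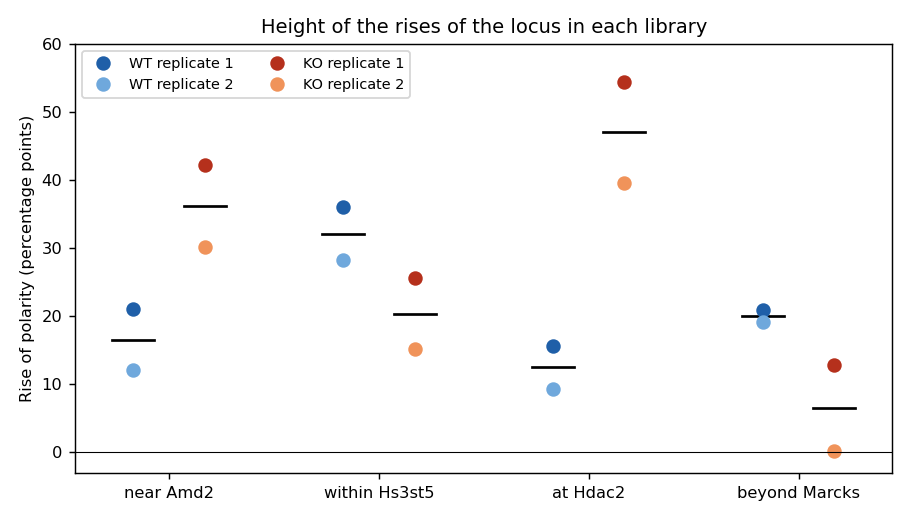
Height in percentage points of 4 rises of the running-mean profile in each library, with black bars for the mean of each genotype (n = 2). KO points lie above WT points near Amd2 and at Hdac2, and below them within Hs3st5 and beyond Marcks.

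Between these rises the profile also differed in sign. The running mean crossed 0 upwards 3 times in each WT library, at 36.634 and 36.621 Mb over Hs3st5, then at Hdac2, and at 37.206 and 37.201 Mb beyond Marcks. In KO it crossed 0 upwards in this stretch only at Hdac2. The top of the rise over Hs3st5 reached 11.7 and 9.58 points in WT, but -3.98 and -2.50 points in the KO libraries. In the single window centred at 36.675 Mb the values were 18.1 and 17.3 points in the WT libraries and 0.388 and 0.526 points in the KO libraries, so the KO libraries came to about 0 there without the running mean. The foot of the rise beyond Marcks, at 37.175 Mb, lay at -5.10 and -1.96 points in the WT libraries and at 15.0 and 12.4 points in the KO libraries. The declines that separate the rises overlapped between the genotypes. From 36.675 to 36.85 Mb polarity changed by -23.1 and -15.8 points in the WT libraries and by -18.3 and -20.6 points in the KO libraries. From 37.025 to 37.175 Mb it changed by -8.03 and -5.11 points in the WT libraries and by -15.4 and -4.10 points in the KO libraries.

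The 3 genes lie at different places along these rises, and their levels of polarity differed between the genotypes in different directions. Over the 17 windows that overlap Hs3st5, mean polarity was -7.96 and -4.69 points in the WT libraries and -19.6 and -14.0 points in the KO libraries, a difference of -10.5 points against a pooled replicate SD of 3.25 points. In the window nearest the Hs3st5 start alone, polarity was -25.8 and -18.0 points in the WT libraries and -32.1 and -17.0 points in the KO libraries, a difference of -2.66 points, and the genotypes overlapped. Over the 6 windows that overlap Hdac2, it was -0.0622 and 2.36 points in the WT libraries and 23.7 and 8.25 points in the KO libraries. KO values were the higher at Hdac2 without overlap, but they were far apart, and the difference of 14.8 points (pooled replicate SD 7.83) was 7.10 points without KO replicate 1 and 22.6 points without KO replicate 2. In the window nearest the Hdac2 start alone, polarity was 0.575 and 6.22 points in the WT libraries and 32.7 and 5.65 points in the KO libraries, and the genotypes overlapped. Over the 4 windows that overlap Marcks, polarity was -7.33 and -2.29 points in the WT libraries and 18.1 and 14.5 points in the KO libraries. Marcks had the largest difference of the 3 genes, 21.1 points against a pooled replicate SD of 3.11 points. In the window nearest the middle of Marcks alone, polarity was -7.5 and 0.699 points in the WT libraries and 19.8 and 17.2 points in the KO libraries, without overlap. In order of level the genes stood as Marcks, Hdac2 and Hs3st5 in KO replicate 2, as Hdac2, Marcks and Hs3st5 in KO replicate 1 and in both WT libraries. Neighbours in this order did not differ beyond the replicates for Marcks and Hs3st5 in WT, nor for Hdac2 and Marcks in KO, where their values overlapped.

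Windows in which the genotypes did not overlap formed blocks on either side of Hdac2. In the locus both KO values lay above both WT values in 25 of 121 windows (20.7%), against 22.2% of 94694 autosomal windows. They lay below in 30 windows (24.8%), against 22.5%. These shares are near those of the genome, and nothing is read from them. The longest block, 11 windows with midpoints from 36.65 to 36.9 Mb over the second part of Hs3st5 and the gap before Hdac2, had a mean KO minus WT difference of -15.1 points. The next, 10 windows from 37.0 to 37.225 Mb over Hdac2 and Marcks, had a mean difference of 19.4 points. The largest difference above 0 was in the window at 37000001 to 37100000, with 3.51 and 1.05 points in the WT libraries and 28.0 and 21.4 points in the KO libraries, a difference of 22.5 points. The window at 37100001 to 37200000, which holds Marcks and 5930403N24Rik, came close to it, with -9.49 and -4.17 points in the WT libraries and 17.2 and 13.4 points in the KO libraries. The largest below 0 was at 36675001 to 36775000 within Hs3st5, with 12.3 and 4.55 points in the WT libraries and -19.2 and -3.85 points in the KO libraries, with the KO libraries far apart. In limma with Benjamini-Hochberg adjustment over 23672 windows that do not overlap, 13 windows (0.0549%) had an adjusted p-value under 0.05 and the locus held 0 of them. Of its 31 windows in that fit, 7 (22.6%) had an unadjusted p-value under 0.05, against 12.2% of all windows in the fit. After scaling of each library by its SD, 2 of the 31 had an adjusted p-value under 0.05 (6.45%, against 0.38% of all windows), and with the replicate number as a block 4 had (12.9%, against 2.66%). In limma over the overlapping windows, 0 of 121 in the locus passed the adjustment, against 0.076% of all, and 27 (22.3%) had an unadjusted p-value under 0.05, against 12.1%. The locus was picked on these values, and nothing is read from these shares.

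**Figure D3:**
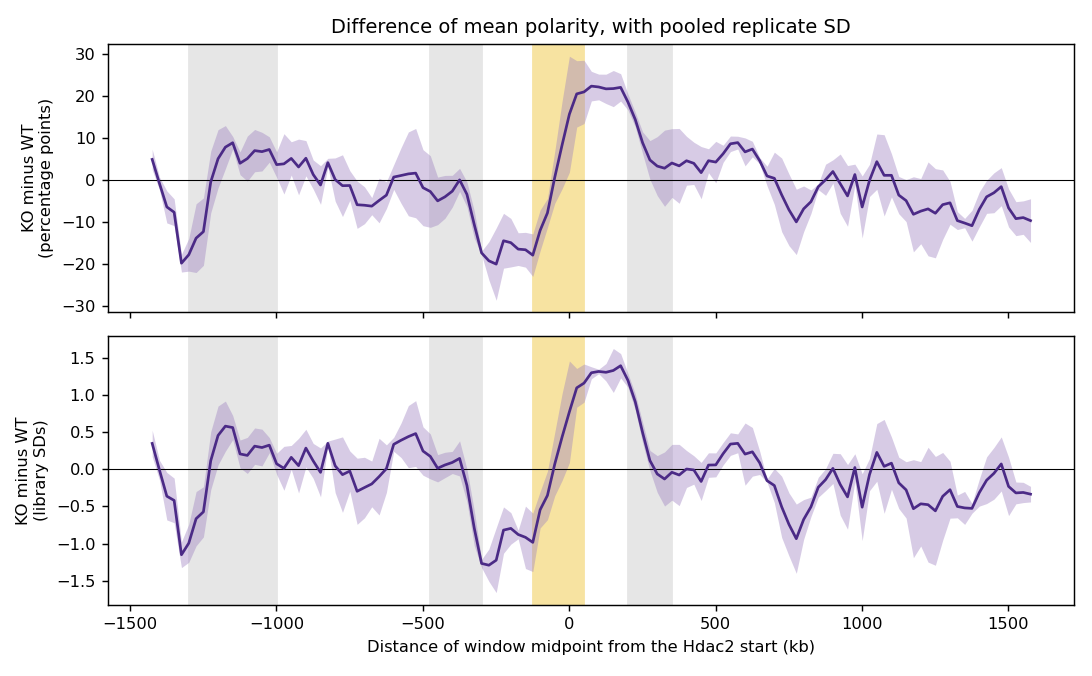
Mean polarity of KO minus that of WT along the locus, in percentage points (top) and in units of each library's SD (bottom), against distance from the Hdac2 start in kb; the band is the pooled replicate SD (n = 2 per genotype). The difference lies below 0 over the second part of Hs3st5 and above 0 over Hdac2 and Marcks on both scales, and the yellow strip marks the rise between them.

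Away from Hdac2, a further rise in the locus was larger in KO. It runs from 35.675 to 35.975 Mb and spans Amd2 and the lncRNA gene Gm40623. It was 21.1 and 12.1 points in the WT libraries and 42.3 and 30.1 points in the KO libraries, with means of 16.6 ± 6.31 and 36.2 ± 8.59 points (SD, n = 2 each) and no overlap. In library SD units it was 1.44 and 0.945 in the WT libraries and 2.17 and 2.08 in the KO libraries. The foot of this rise set the genotypes apart most. In the window at 35600001 to 35700000, just before Amd2, polarity was -4.45 and -0.888 points in the WT libraries and -23.5 and -21.3 points in the KO libraries, a difference of -19.7 points. In the gap between Amd2 and Hs3st5, from 35.975 to 36.5 Mb, polarity changed by -37.3 and -27.3 points in the WT libraries and by -50.2 and -29.8 points in the KO libraries, and the genotypes overlapped.

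Beyond Marcks the locus holds only lncRNA genes, a snoRNA gene and a pseudogene. Past the rise just beyond Marcks, the profile declined. From 37.575 to 38.15 Mb it changed by -21.0 and -16.3 points in the WT libraries and by -26.1 and -38.0 points in the KO libraries. The KO declines were the larger in points, but in library SD units KO replicate 1 lay between the WT libraries. At the left edge of the locus, the last window outside it, from 35475001, had 0.777 and -0.990 points in the WT libraries and -3.15 and 1.04 points in the KO libraries. The first window inside, from 35500001, had -2.11 and -5.84 points in the WT libraries and 2.59 and -0.549 points in the KO libraries. At the right edge, the last window inside, from 38500001, had -18.5 and -14.0 points in the WT libraries and -30.5 and -21.1 points in the KO libraries. The next one outside had -16.8 and -14.9 points in the WT libraries and -24.8 and -20.7 points in the KO libraries. The genotypes overlapped just outside the left edge but not just inside it, whereas both KO values lay below both WT values on either side of the right edge. Neighbouring windows share most of their bases, so these values cannot show whether the profile has a step there. The edges are those of the rule alone.

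Over the whole locus the profile was more uneven in KO. The SD of polarity over its 121 windows was 12.9 and 10.7 points in the WT libraries and 19.1 and 14.5 points in the KO libraries, a difference of 5.02 points against a pooled replicate SD of 2.57 points, which was 2.71 points without KO replicate 1. Divided by the SD over the autosomes, it was 0.884 and 0.831 in the WT libraries and 0.983 and 0.998 in the KO libraries. The locus was therefore flatter than the autosomes in WT and about as uneven as them in KO. Mean polarity over the locus was -1.87 and 0.746 points in the WT libraries and 0.722 and -2.93 points in the KO libraries, with the WT libraries between the KO libraries. The genotype means differed by -0.538 points, less than the pooled replicate SD of 2.25 points. Across its windows, which overlap and are not replicates, Pearson's r was 0.934 for the WT replicates and 0.884 for the KO replicates. For pairs of unlike genotype it ranged from 0.737 to 0.818, whereas over 23672 autosomal windows the same pairs ranged from 0.865 to 0.917, and the WT and the KO replicates had 0.941 and 0.912. The locus was picked for a difference between the genotypes on these values, and nothing is read from the lower r. Segments between neighbouring extrema that rose by at least 1 SD of the library numbered 4 and 3 in the WT libraries and 3 in each KO library, and those that fell by as much numbered 2 and 4 in the WT libraries and 4 and 5 in KO. Both counts overlapped between the genotypes, and the sign of the difference in rising segments turned with other minima. The rising segments were not the same ones in every library. At this minimum WT replicate 2 had none at Hdac2, and neither KO library had one beyond Marcks.

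The rise over Hdac2 was set beside the same measure at related genes. Over 175 kb centred on the gene start, polarity rose at Hdac2 by 15.5 and 7.53 points in the WT libraries and by 47.5 and 40.2 points in the KO libraries, a difference of 32.3 points. Around Marcks the change was 2.05 and 1.95 points in the WT libraries and -11.5 and -7.65 points in the KO libraries. Around the start of Hs3st5 it was 14.3 and 13.0 points in the WT libraries and 15.9 and 1.86 points in the KO libraries, and the genotypes overlapped. The list of related genes comprised the other histone deacetylase genes from Hdac1 to Hdac11, Marcksl1 and 6 other Hs3st genes, 17 in all. Both KO values lay above both WT values at 3 of them and below at 2, against 26.3% and 18.5% of 15813 protein-coding gene starts on the autosomes. The values at the other 12 overlapped. Hdac6 and Hdac8, both among these, lie on the X chromosome and so outside that background. The differences over the list ranged from -7.77 points at Hdac11 to 21.7 points at Hdac7, with a median of 0.367 points, and those over all gene starts had a median of 1.10 points and ran from -29.1 to 38.0 points.

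Hdac7, a class IIa deacetylase that acts on transcription in endothelial cells and lymphocytes, came closest to Hdac2. Its change was -4.73 and -7.89 points in the WT libraries and 11.1 and 19.8 points in the KO libraries, so that the sign differed between the genotypes. Hs3st3b1, another heparan sulfate 3-O-sulfotransferase gene, had a high rise in both genotypes, of 29.2 and 27.0 points in the WT libraries and 45.4 and 37.1 points in the KO libraries. Hdac1, the close paralogue of Hdac2, had -0.494 and 5.72 points in the WT libraries and 9.0 and -2.13 points in the KO libraries, which overlap. For Marcks, Hdac1, Hdac3, Hdac10 and Hs3st6 the middle of the gene was used in place of a start.

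**Figure D4:**
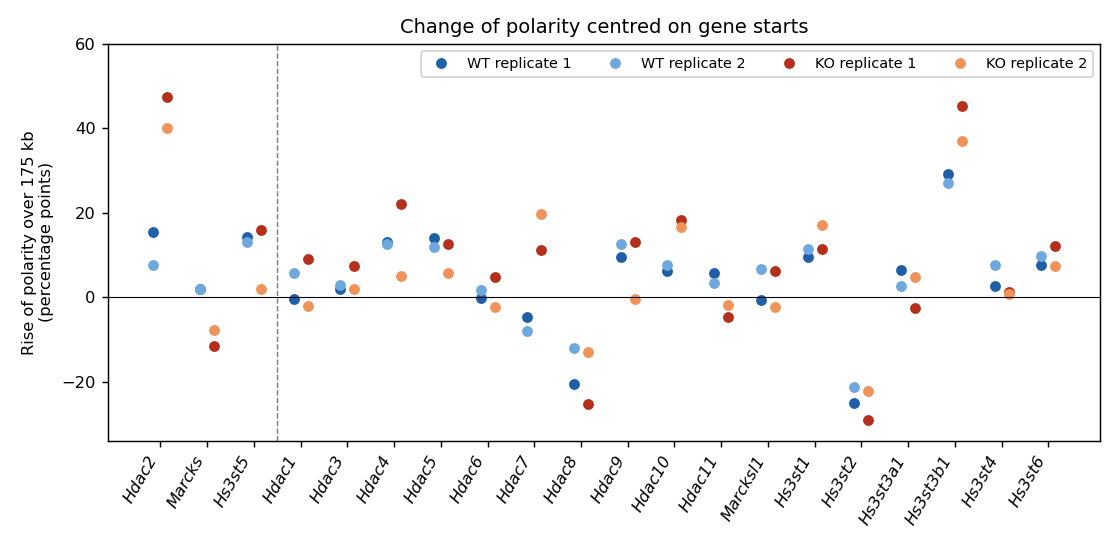
Change of running-mean polarity over 175 kb centred on the start of each gene, in percentage points, for 2 WT (blue) and 2 KO (red and orange) libraries; members of the locus are left of the dashed line and related genes right of it. Within each KO library Hdac2, whose locus was picked for this rise, has the highest value of the genes shown, 47.5 and 40.2 points. Hdac7 is the related gene with the largest difference.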

How the data were processed

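TrAEL-seq reads were trimmed with Trim Galore 0.6.5 and aligned with Bowtie2 2.4.1 to GRCm38, per the submitters' processing notes; an rRNA sequence was added to the genome and reads were deduplicated, per the file headers. The deposited values are a score per window and library, a strand imbalance in percentage points; the program, the positive strand and any read minimum are not given in the sources used here, and no depth, interval or detection floor can be given.

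Groups come from the labels. The members, gene lists and naming rule were chosen with earlier results of these data known. The windows, genes and related genes named are those of the locus, up to 3 windows per direction with the largest difference, a fixed list of paralogues and the genes with the most similar profile, which are not reported here. Rises were read on a running mean of 5 windows; rises other than that at Hdac2 and their alternatives were chosen after seeing the data. Spread is the SD of n = 2 libraries, pooled over both genotypes beside a difference. Autosomal backgrounds used full-length windows with a value in all libraries. limma 3.58.1 (R 4.3.3) was fitted over all windows, and the segment caller and the fit were tested on simulated data. Python 3.11.15, numpy 2.4.6, pandas 2.3.3 and matplotlib 3.10.9 were used. Alternatives were other running means and scales, other bounds and minima, overlapping windows, the replicate block and omission of each library. Expression of Snf2h and of any marker of the cells was not analysed here. Sequences and gene intervals are from RefSeq tables of GRCm38.p6.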

Additional observations from a re-analysis of the deposited data

How the results depend on the processing

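Of 75 alternatives other than omission of a library, 61 kept the direction of the value within the replicate spread (or a count within 1.5 times), 11 moved it and 3 reversed it. Omission of each library in turn reversed 4 of 52 values. With bounds at each library's own extrema, added after seeing the data, the differences over Hs3st5 and beyond Marcks were -11.0 and -9.78 points. The gained rise at Hdac2 stayed between 27.1 and 41.9 points with each library left out, and was 15.7 points with the largest rise of each library near the bounds, which takes the rise over Hs3st5 in WT. After scaling of each library to the mean SD, the net change from Hs3st5 to Marcks was -3.93 points, reversed, and the difference of locus SD was 2.05 points. With each library left out, the net change ranged from -8.41 to 20.4 points, mean polarity of the locus from -2.36 to 1.29 points (0.772 without WT replicate 2), the change at the Hs3st5 start from -11.8 to 2.28 points and polarity at Hdac2 from 7.10 to 22.6 points. The difference in rising segments, -0.5 in the main setting, became 0 when 3 windows were averaged, 1 at a minimum of 0.5 SD and 0.5 at 15 points. The KO minus WT difference in polarity at Hs3st5 was -2.66 points in the window at its start alone. The change at the Hdac2 start was 26.3 points with a running mean of 9 windows; that at Marcks was -8.33 points with 9, -13.5 points without a running mean and -13.8 points on an atanh scale. The cause was not tested for these.

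With the replicate number as a block, the gained rise was 38.7 points for number 1 and 30.3 points for number 2, again 34.5 on average. Deviations of same-numbered libraries correlated at 0.241. The labels give all 4 libraries the same sequencing lane and name nothing that ties same-numbered libraries to each other, and with 2 pairs the correlation does not settle whether they are paired. Against 13 windows in limma, 630 (2.66%) passed with the block, 90 (0.38%) after scaling and 72 (0.076%) over overlapping windows. No other split of the libraries was tested, and without counts the part of read depth in any value is not known.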
